A study of Oryza sativa Indica Group with 6 samples.

Results

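Cyclins and cyclin-dependent kinases (CDKs) were read on Affymetrix Rice Genome arrays in seedlings of the Basmati lines Ossl, Osoc and OsPE, each a T-DNA insertional mutant sampled 15 days after germination under conditions described as optimal. Each line had 2 arrays, which the series text calls biological replications. The organism label is Oryza sativa Indica Group. All 3 lines carry an insertion and an untransformed line was not analysed here, so each line is set against the others. Insertion sites, the meaning of the line names and the number of seedlings per sample are not stated in the labels.

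Members were the genes whose symbol or synonym is CYC followed by 1 capital letter and a digit, or CDK followed by a letter from A to G. Such a name was held by 42 genes, and 35 of them had a probe set listed for that gene alone, out of 17905 genes with such a probe set. These were 24 cyclins and 11 CDKs, each read on its probe set with the highest mean over the 6 arrays. The other 7 genes, CDKB1-1, CDKC-2, CDKF-2, CycT1;1, CYCA3-1, CYCB1-5 and CYCD2-1, had no such probe set and are only named. The synonym CYCT1-1 is listed for both CycT1;1 and CycT1;4, and the values below belong to CycT1;4 (LOC4352229).

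A cyclin is the regulatory subunit that switches on a CDK. In plants, D-type cyclins act with CDKA in the G1 phase, where they phosphorylate the retinoblastoma-related protein and so free E2F factors to start DNA synthesis. A-type cyclins act in S phase and up to mitosis, and B-type cyclins with CDKA and the plant-specific CDKB drive mitosis. Other members have work outside the division cycle: CDKD with cyclin H activates other CDKs and phosphorylates RNA polymerase II, and CDKC with cyclin T and the Mediator kinase CDKE act in transcription. In a seedling, division takes place mainly in the shoot and root apices and at the leaf base, so dividing cells are a small part of the tissue.

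All 6 arrays had the same trimmed mean, 500.1, and medians of 37.3 to 42.8. Log2 signals correlated at 0.972 to 0.976 between arrays of 1 line and at 0.962 to 0.969 between arrays of different lines. These are Pearson correlations over the probe sets that passed the filter given below, which are not replicates of each other. The leaf markers CAB2R and OsrbcS read at least 47934 and 31645 on every array, while RBCS1 read 30.2 to 49.2. The shoot meristem genes OSH1 and OSH71 read at most 18.4 and 35.6. The grain markers GLUA-1, GLUB-4 and PROLM25 read at most 40.2, whereas RAG2 read 71.4 to 151.1 and GLUA-2 1086.6 to 1391.9. The root markers OsSHR1 and OsSCR1 read at most 54.8 and 82. Poly-A control RNAs, which are added to a sample to follow its handling, were lower on the Ossl arrays than on the others, with a mean log2 difference of -1.21 for the 5' probe sets and of -0.56 for the 3' ones.

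**Figure D1:**
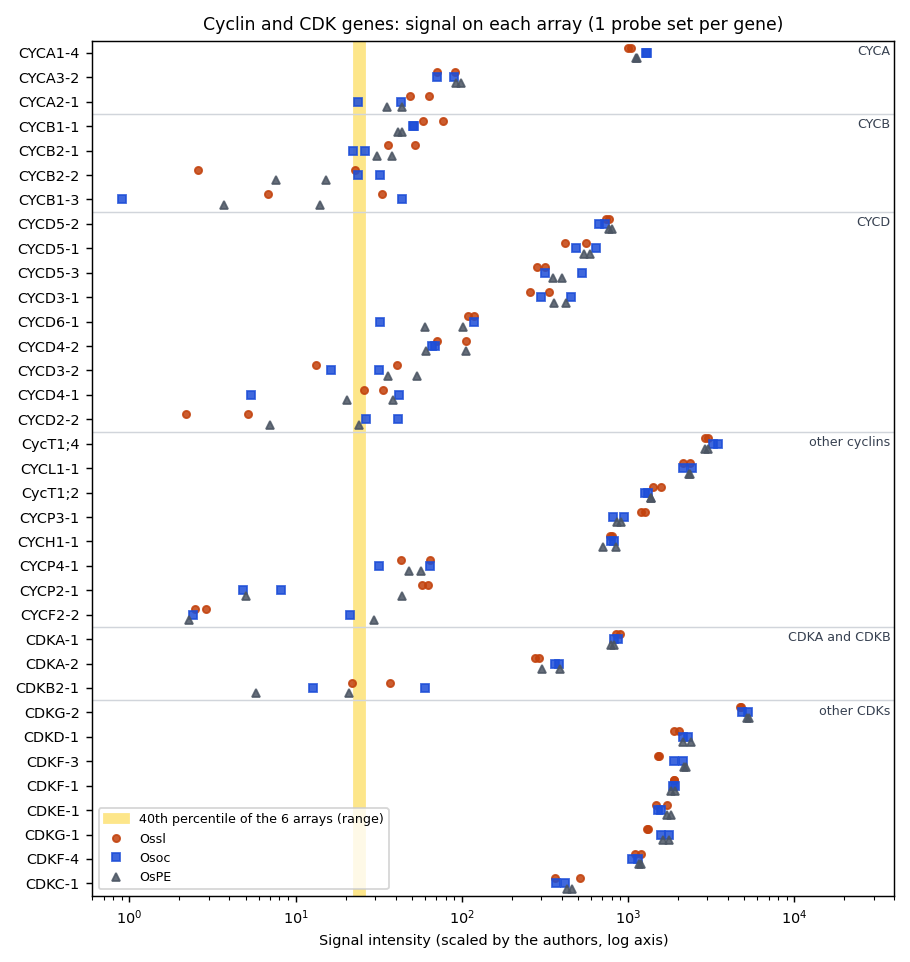
Signal of each of the 35 members on each of the 6 arrays, on a log axis, grouped by class and ordered by mean signal. The yellow band is the range of the arrays' 40th percentile, 22.5 to 26, and most B-type cyclins lie in or near it while all 8 CDKs outside the A and B classes read 362.8 or more.

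Tests covered the probe sets that read above the array's 40th percentile (22.5 to 26) on 2 or more of the 6 arrays. That percentile is a filter and not a detection call. It was exceeded on all 6 arrays by 25 members, on 2 to 5 arrays by 9, and on 1 array by CYCF2-2, of the rice F class of cyclins, which was therefore not tested. CYCF2-2 read 2.5 and 2.9 in Ossl, 21.2 and 2.4 in Osoc, and 2.3 and 29.6 in OsPE. Signals of different probe sets depend on the probes as well as on the transcripts, so levels of different genes are not ranked against each other. In RNA of a seedling, fewer cells of a type and less RNA per cell cannot be told apart.

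In Ossl, CDKF-3 and CDKG-1 were lower and CYCP3-1 was higher than in either other line. Across all tested probe sets, 3138 of 39629 (7.92%) passed in Ossl against OsPE, at a Benjamini-Hochberg adjusted p below 0.05 in limma. Among the 34 members tested, 3 passed (8.82%), 1 higher and 2 lower, against a background of 4.11% higher and 3.81% lower. In Ossl against Osoc the background was 11.2%, and 4 of 34 members passed (11.8%), 1 higher and 3 lower, beside 5.93% and 5.27% of all tested probe sets. Both shares are near the background of all tested probe sets, and the members as a set did not stand out from it. As in every comparison here, that background includes dim probe sets and was not matched for signal. With a stricter filter, the 60th percentile on all 6 arrays, more probe sets passed (3446 and 4829) although fewer were tested. The share called is thus higher among brighter probe sets. The tested members had a median log2 difference of -0.03 between Ossl and OsPE, beside -0.0244 over all tested probe sets, and of 0.02 between Ossl and Osoc, beside 0.00357. At least 1 comparison passed for 4 of the 34 members and for 16.8% of all tested probe sets. The 2 comparisons of Ossl share the Ossl arrays and are not independent.

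CDKF-3 (LOC4334774), of the F class by name, read 1520.7 and 1541.1 in Ossl, 2128.7 and 1881.1 in Osoc, and 2221.6 and 2166.9 in OsPE. The Ossl arrays were below all the others, and those of Osoc and OsPE did not overlap either. CDKF-3 was 1.43-fold lower in Ossl than in OsPE (log2 difference -0.51 ± 0.08 SE, adjusted p = 0.00167) and 1.3-fold lower than in Osoc (-0.38 ± 0.08, adjusted p = 0.00873). Without Osoc replicate 1 the comparison with Osoc did not pass (-0.29, adjusted p = 0.0982). The F-class genes CDKF-1 and CDKF-4 did not pass. CDKF-1 read 1895.8 and 1902.3 in Ossl, 1860.2 and 1908.7 in Osoc, and 1806.8 and 1903.5 in OsPE, with an interval of -0.13 to 0.2 for Ossl against OsPE.

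CDKG-1 (LOC4329899), of a class that in Arabidopsis acts in RNA splicing and meiotic chromosome pairing, read 1308.3 and 1320 in Ossl, 1571.5 and 1760.9 in Osoc, and 1753.5 and 1632.7 in OsPE. The Ossl arrays were below all the others, while those of Osoc and OsPE overlapped. CDKG-1 was 1.28-fold lower in Ossl than in OsPE (-0.36 ± 0.09, adjusted p = 0.0222) and 1.26-fold lower than in Osoc (-0.34 ± 0.09, adjusted p = 0.0244). The other probe set of CDKG-1 read 22.2 to 47.3, near the filter. It differed in the same direction, by -0.17 ± 0.46 against OsPE and -0.15 ± 0.46 against Osoc, and did not pass. Both calls ended with median centring (adjusted p = 0.059 and 0.056), with the mean of its probe sets in place of the brightest (0.471 and 0.493) and without either Ossl array (0.0765 to 0.0826). The call against OsPE also ended without OsPE replicate 1 (0.199) or OsPE replicate 2 (0.0742), and the call against Osoc without Osoc replicate 2 (0.202).

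CYCP3-1 (LOC4338711), of the P-type cyclins that resemble the yeast phosphate-signalling cyclin PHO80, read 1198.8 and 1273.1 in Ossl, 945 and 815 in Osoc, and 902.8 and 861.1 in OsPE. Both Ossl arrays lay above all the others, and Osoc and OsPE overlapped. CYCP3-1 was 1.39-fold higher in Ossl than in OsPE (0.48 ± 0.1, adjusted p = 0.0116) and 1.4-fold higher than in Osoc (0.49 ± 0.1, adjusted p = 0.00812). The call against OsPE ended without OsPE replicate 1 (adjusted p = 0.0589), OsPE replicate 2 (0.103) or Ossl replicate 2 (0.081). The call against Osoc ended without Osoc replicate 2 (0.0884) or Ossl replicate 2 (0.0603). The P-type cyclin CYCP2-1 read 58 and 62.3 in Ossl, 4.8 and 8.2 in Osoc, and 43.7 and 5 in OsPE. It was highest in Ossl and did not pass (adjusted p = 0.326 against OsPE and 0.0808 against Osoc). CYCP4-1, the other P-type cyclin measured, read 43.2 and 64.6 in Ossl, 64 and 31.9 in Osoc, and 57 and 48.2 in OsPE. Its ranges overlapped, and Ossl differed by 0.01 ± 0.42 from OsPE and 0.16 ± 0.42 from Osoc (adjusted p = 0.993 and 0.881).

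**Figure D2:**
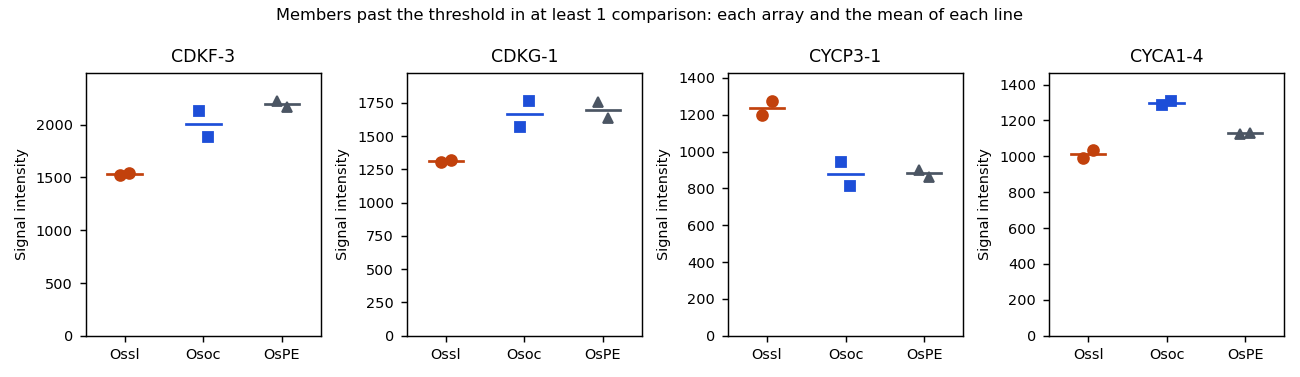
Signal of CDKF-3, CDKG-1, CYCP3-1 and CYCA1-4 on each array (points) with the mean of each line (bars), from Ossl on the left to OsPE on the right, on axes that start at 0. CDKF-3 and CDKG-1 are lowest and CYCP3-1 highest on both Ossl arrays, and CYCA1-4 is highest in Osoc.

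In both comparisons at once, 1 of the 34 members was higher in Ossl and 2 were lower. Of all tested probe sets 4.15% set Ossl apart in this way, 2.32% higher and 1.83% lower. These members moved on the arrays on which the poly-A controls were lower (-1.21 and -0.56, mean log2), and the part of that in the result was not tested. Without the variance modelled as a trend of the signal, none of the 7 calls of members remained, with adjusted p from 0.144 to 0.251.

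In Osoc against OsPE, 2955 of 39629 probe sets (7.46%) passed, 3.61% higher and 3.85% lower, and 0 of the 34 tested members did so in limma. At an unadjusted p below 0.05 there were 2, CYCA1-4 and CycT1;4, and 0 passed under any alternative setting. CycT1;4, a cyclin T of the transcription elongation kinase, read 3485 and 3228.2 in Osoc, and 2903.1 and 3018.8 in OsPE. Both Osoc arrays were higher, by 0.18 ± 0.07 on the log2 scale (adjusted p = 0.166). In Ossl it read 2897 and 3025.1. The median log2 difference of the members was -0.05 for Osoc against OsPE, beside -0.03 over all tested probe sets, and the median of its size was 0.16 against 0.245.

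The B-type cyclins and CDKB, which act at mitosis, read near the filter and did not pass in any comparison. Of 4 B-type cyclins, 1 exceeded the filter on all 6 arrays. This was CYCB1-1, which read 58.1 and 77.1 in Ossl, 51.2 and 51.7 in Osoc, and 43.6 and 41.3 in OsPE. The order Ossl, Osoc, OsPE held without overlap, but no difference passed, with 0.51 ± 0.38 (log2, SE) for Ossl against OsPE (adjusted p = 0.518). CYCB1-3 read 33.1 and 6.8 in Ossl, 0.9 and 43.9 in Osoc, and 14 and 3.7 in OsPE, so the arrays of 1 line differed as much as those of different lines. CYCB2-1 and CYCB2-2 read 2.6 to 52.2 and did not pass. CDKB2-1, the only B-type CDK measured, read 36.8 and 21.8 in Ossl, 59.9 and 12.8 in Osoc, and 5.8 and 20.9 in OsPE. The Osoc arrays of CDKB2-1 enclosed all values of the other lines but the lower of OsPE. For Ossl against OsPE the 95% interval of CDKB2-1 ran from -0.66 to 1.97 on the log2 scale, so a 2-fold difference was not detectable at this signal.

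Among the A-type cyclins, CYCA1-4 (LOC4338177) passed in 1 comparison. It read 992.7 and 1037 in Ossl, 1283.4 and 1306.1 in Osoc, and 1122.7 and 1131.4 in OsPE, and the arrays of the 3 lines did not overlap. CYCA1-4 was 1.27-fold lower in Ossl than in Osoc (log2 difference -0.35 ± 0.09 SE, n = 2 arrays per line, adjusted p = 0.0207). It did not pass in Ossl against OsPE, at -0.15 ± 0.09 (adjusted p = 0.37), or in Osoc against OsPE, at 0.2 ± 0.09 (adjusted p = 0.225). The call of CYCA1-4 ended with median centring (adjusted p = 0.0512) and without Osoc replicate 1 (0.0875), Osoc replicate 2 (0.115) or Ossl replicate 1 (0.0852). CYCA3-2 read 71.3 and 90.5 in Ossl, 71.2 and 89.2 in Osoc, and 92.5 and 99.5 in OsPE. CYCA2-1 read 48.6 and 63.3 in Ossl, 23.7 and 43.1 in Osoc, and 43.4 and 35.4 in OsPE. Neither of these passed in any comparison, with adjusted p of 0.506 or more.

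The 9 D-type cyclins, which carry hormone and sugar signals into the cycle, did not pass in any comparison. The lowest adjusted p in the class was 0.322 between Ossl and OsPE, 0.197 between Ossl and Osoc and 0.442 between Osoc and OsPE. CYCD5-2 read 737.1 and 772.4 in Ossl, 731.3 and 665.1 in Osoc, and 766 and 802.8 in OsPE. On this probe set the interval for Ossl against OsPE ran from -0.28 to 0.17, which leaves out any change of 2-fold. The dimmer probe set of CYCD5-2 read 19.3 and 7.4 in Ossl, 4.6 and 40.4 in Osoc, and 57.3 and 30.6 in OsPE. Its difference between Ossl and OsPE was -1.02 ± 0.61 (log2, SE; adjusted p = 0.392). The interval there, -2.36 to 0.31, does not leave out a change of 2-fold. CYCD2-2 read 5.2 and 2.2 in Ossl, 41.2 and 26.4 in Osoc, and 24.2 and 7 in OsPE. The Ossl arrays lay below all the others, and the difference from Osoc was -1.33 ± 0.59 (log2, SE; adjusted p = 0.197). CYCD5-3 read 318.7 and 284.3 in Ossl, 316.6 and 525.9 in Osoc, and 398.3 and 354.5 in OsPE, with the spread of Osoc wider than any difference between lines. Without Osoc replicate 1, CYCD5-3 became a call in Ossl against Osoc. The other 6 D-type cyclins read 5.4 to 640.1. On their brightest probe sets, 4 of the 9 D-type cyclins had intervals within 2-fold in all 3 comparisons.

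CDKA, the central kinase of both the G1 and the mitotic transition, did not pass on any probe set. CDKA-1 read 893.2 and 850 in Ossl, 822.8 and 864.2 in Osoc, and 827.2 and 785.5 in OsPE. The Osoc range of CDKA-1 overlapped those of both other lines. Its log2 difference was 0.11 between Ossl and OsPE (95% interval -0.1 to 0.32), 0.05 between Ossl and Osoc (-0.17 to 0.26) and 0.06 between Osoc and OsPE (-0.15 to 0.28). The second gene, CDKA-2, was read on a probe set of the type that can bind related transcripts. CDKA-2 read 275.2 and 289.6 in Ossl, 365.1 and 385 in Osoc, and 304.9 and 391 in OsPE. Its Ossl arrays were the lowest, at -0.39 ± 0.16 against Osoc (log2, SE; adjusted p = 0.17). The dimmest of its 3 probe sets pointed the other way, with 148.5 and 184.2 in Ossl, 93.7 and 117.9 in Osoc, and 112.6 and 105.5 in OsPE (0.58 ± 0.26 for Ossl against Osoc, adjusted p = 0.206).

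Among the CDKs outside the A and B classes and the cyclins of transcription, splicing and CDK activation, CDKF-3 and CDKG-1 passed, as described. The others did not pass on their brightest probe sets. On their brightest probe sets, all 8 CDKs outside the A and B classes had intervals within 2-fold in all 3 comparisons. This held for 21 of the 34 tested members. Dimmer probe sets of CDKE-1, CDKF-4, CDKG-1 and CDKG-2 had intervals that reached past 2-fold. For Ossl against OsPE these ran from 0.5 to 1.18 for CDKE-1 and from -1.87 to -0.43 for CDKF-4. CDKD-1, the CDK-activating kinase also known as R2, read 2023.9 and 1901.6 in Ossl, 2283 and 2143.4 in Osoc, and 2132.4 and 2403.3 in OsPE. Both Ossl arrays of CDKD-1 were the lowest, and the difference from OsPE, -0.21 ± 0.08 (log2, SE), did not pass (adjusted p = 0.172). Its partner CYCH1-1, the cyclin H, read 774.8 and 804.8 in Ossl, 792.3 and 821.4 in Osoc, and 845.2 and 703.2 in OsPE. The ranges of the 3 lines overlapped. CDKC-1, the elongation kinase that pairs with cyclin T, read 362.8 and 511.1 in Ossl, 369.4 and 419.1 in Osoc, and 427.8 and 458.7 in OsPE. Both Osoc arrays of CDKC-1 lay below both OsPE arrays, the Ossl arrays spanned all of these, and no difference passed (adjusted p of 0.673 or more). CycT1;2, a second cyclin T, read 1586.9 and 1419.6 in Ossl, 1315.8 and 1256.1 in Osoc, and 1379.1 and 1371 in OsPE, highest in Ossl, and did not pass (adjusted p = 0.477 against OsPE and 0.14 against Osoc). CYCL1-1, a cyclin L of the splicing machinery, read 2130.4 to 2411 over the 6 arrays, and its differences lay between -0.05 and -0.02.

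**Figure D3:**
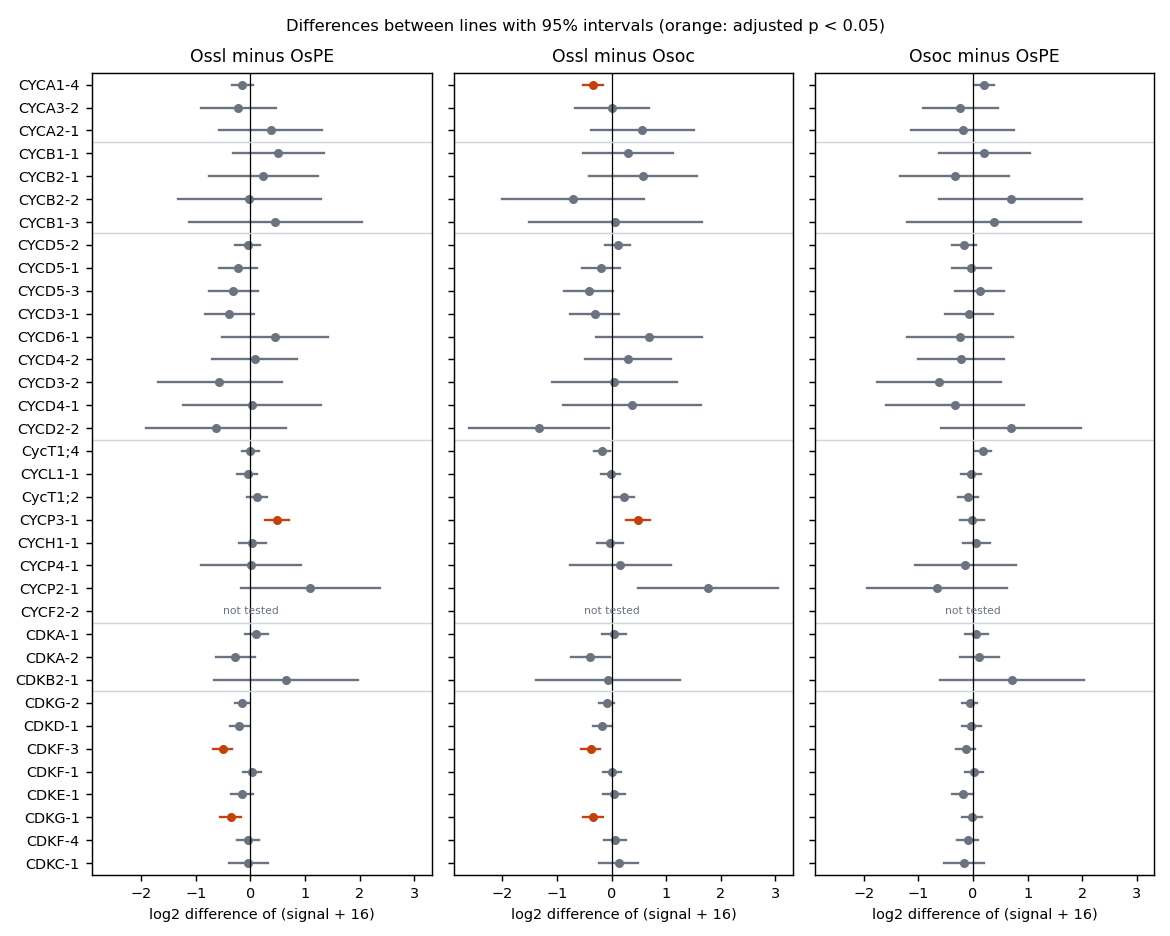
Log2 difference of signal + 16 for each member (points) with its 95% interval (lines) in Ossl minus OsPE, Ossl minus Osoc and Osoc minus OsPE, with adjusted p below 0.05 in orange. The intervals of the CDKs outside the A and B classes are narrow, those of the B-type cyclins span more than 1 on the log2 scale, and the orange points are CDKF-3, CDKG-1 and CYCP3-1 in both Ossl panels and CYCA1-4 against Osoc.

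Of the 35 members, 8 had more than 1 probe set, and for the Mediator kinase CDKE-1 and for CDKG-2 the probe sets disagreed. The brighter probe set of CDKE-1 read 1721.9 and 1466.7 in Ossl, 1577 and 1504.1 in Osoc, and 1812 and 1717.9 in OsPE, with a difference of -0.15 ± 0.09 for Ossl against OsPE (adjusted p = 0.404). The dimmer one read 487.4 and 495.6 in Ossl, 300.9 and 328.7 in Osoc, and 295.9 and 240.9 in OsPE. It was 1.79-fold higher in Ossl than in OsPE (0.84 ± 0.16, adjusted p = 0.00514) and 1.54-fold higher than in Osoc (0.62 ± 0.16, adjusted p = 0.0232). No direction is therefore given for CDKE-1 as a gene.

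CDKG-2 split in the same way. Its brightest probe set read 4719.9 and 4780.4 in Ossl, 5261.8 and 4857.1 in Osoc, and 5216.4 and 5339.3 in OsPE, and did not pass (-0.15 ± 0.06 for Ossl against OsPE, adjusted p = 0.188). Its dimmest read 458.9 and 430.8 in Ossl, 302.1 and 350.5 in Osoc, and 309.1 and 242.1 in OsPE, and was 1.59-fold higher in Ossl than in OsPE (0.67 ± 0.17, adjusted p = 0.0275). The remaining probe set of CDKG-2 was 1.33-fold higher in Osoc than in OsPE (0.41 ± 0.11, adjusted p = 0.0425), at 737.8 and 705.3 in Osoc against 544.7 and 533.8 in OsPE, and read 652.4 and 711.9 in Ossl. That remaining probe set of CDKG-2 is of the type that can bind related transcripts. What these probe sets share with each other, or which other transcripts they bind, could not be read from the data used here. For CDKF-4 the brighter probe set differed by -0.04 ± 0.09 between Ossl and OsPE and the dimmer by -1.15 ± 0.33 (log2, SE; adjusted p = 0.0551), at 42.2 and 57 in Ossl against 101.7 and 160.9 in OsPE. With the mean of its probe sets in place of the brightest, CDKF-4 became a call in that comparison.

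**Figure D4:**
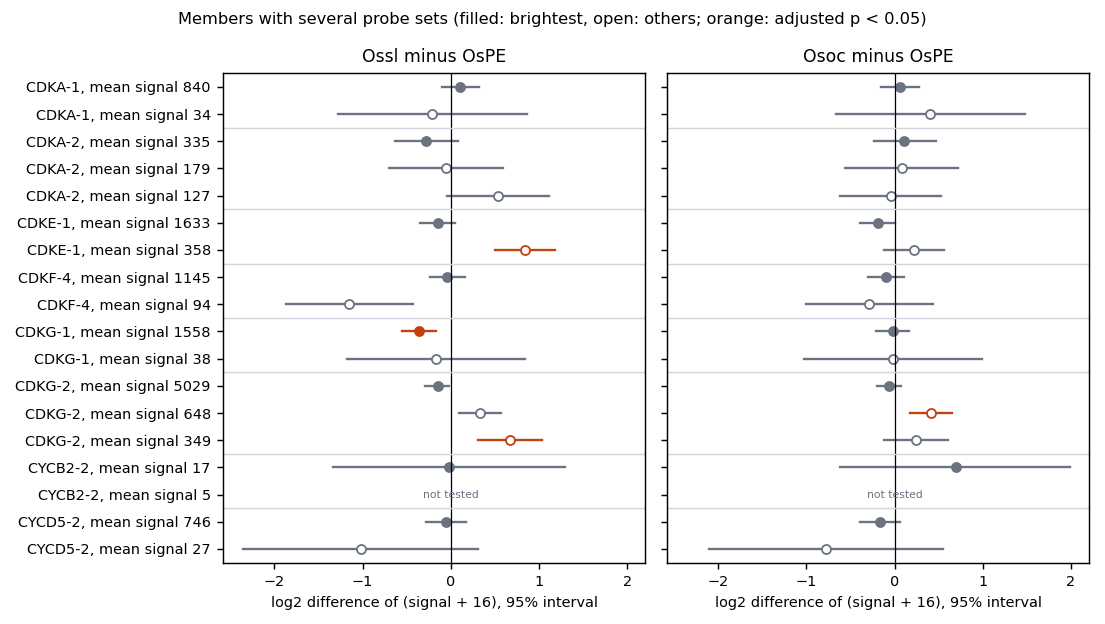
Log2 difference of signal + 16 with its 95% interval for every probe set of the 8 members that have several, in Ossl minus OsPE and Osoc minus OsPE, with the mean signal of each probe set over the 6 arrays beside its gene. Filled points are the brightest probe sets, and the orange points show that CDKE-1 and CDKG-2 pass on a dimmer probe set while their brightest does not.

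The genes that act with the CDKs were read from symbol lists, which gave 43 genes with a probe set, 41 of them tested. In Osoc against OsPE 0 rose and 5 fell (12.2% called, beside 7.46% of all tested probe sets), and in Ossl against OsPE 0 rose and 2 fell (4.88%, beside 7.92%). In Ossl against Osoc 5 rose and 0 fell (12.2%, beside 11.2%), a share near the background. The median log2 difference over the 41 genes was 0.05, 0.06 and 0 in these comparisons, beside -0.03, -0.0244 and 0.00357 over all tested probe sets. Without the variance trend no call of these genes remained. These backgrounds, and those given below for single lists, are not matched for signal, and 31 of the 43 genes exceeded the filter on all 6 arrays. With the stricter filter 3333 probe sets passed in Osoc against OsPE, beside 2955 with the filter used, although fewer were tested. The 6 measured CDK inhibitors, proteins that bind CDK and cyclin and slow division, all exceeded the filter on every array. In Osoc against OsPE 3 of the 6 fell, 0 rose and 3 did not pass, beside 3.85% lower among all tested probe sets, and their median log2 difference was -0.36. Of the same 6, 1 fell in Ossl against OsPE and 1 rose in Ossl against Osoc, with medians of -0.07 and 0.26.

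EL2, an inhibitor of the SIAMESE family that was found in rice through its response to an elicitor, read 2392.4 and 2426.2 in Ossl, 1437.5 and 1441 in Osoc, and 1926.5 and 2167.5 in OsPE. The 3 lines did not overlap, with Osoc lowest. EL2 was 1.42-fold lower in Osoc than in OsPE (-0.5 ± 0.08, adjusted p = 0.0022) and 1.67-fold higher in Ossl than in Osoc (0.74 ± 0.08, adjusted p = 7.83e-05). Both calls held in every fit with 1 array left out, where the highest adjusted p was 0.045 and 0.00212. The dimmer probe set of EL2 differed by -0.53 ± 0.16 in Osoc against OsPE (adjusted p = 0.0762) and by 0.92 ± 0.16 in Ossl against Osoc (adjusted p = 0.00312).

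Of the Kip-related proteins, KRP4 fell in both Osoc and Ossl against OsPE, and KRP6 fell in Osoc. KRP4 read 1836.5 and 1879.7 in Ossl, 1639.5 and 2095.8 in Osoc, and 2620.8 and 2770.7 in OsPE, so that both OsPE arrays were above the rest. It was 1.45-fold lower in Osoc (-0.54 ± 0.1, adjusted p = 0.00686) and 1.45-fold lower in Ossl (-0.53 ± 0.1, adjusted p = 0.00613). Without OsPE replicate 2 neither passed (adjusted p = 0.0748 and 0.0703), and the Osoc call also ended without Osoc replicate 1 (0.0584). KRP6 read 685.3 and 556.9 in Ossl, 568.5 and 440 in Osoc, and 921.4 and 804.3 in OsPE, and was 1.7-fold lower in Osoc than in OsPE (-0.76 ± 0.15, adjusted p = 0.00755). In Ossl against OsPE, KRP6 differed by -0.47 ± 0.15 and did not pass (adjusted p = 0.0788). The KRP6 call ended without OsPE replicate 1 (0.0918) or Osoc replicate 2 (0.0884). Both genes have a second probe set near the filter, and with the mean of the probe sets no call of either remained (0.0967 for KRP4 and 0.0748 for KRP6 in Osoc, 0.526 for KRP4 in Ossl).

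RBR2, a retinoblastoma-related protein that the D-type cyclin kinases phosphorylate, read 947.3 and 1016.7 in Ossl, 1094.1 and 1187 in Osoc, and 1342.3 and 1294.7 in OsPE. The lines did not overlap, and RBR2 was 1.34-fold lower in Ossl than in OsPE (-0.42 ± 0.09, adjusted p = 0.0132). That call ended without OsPE replicate 1 (adjusted p = 0.119), OsPE replicate 2 (0.0743) or Ossl replicate 1 (0.07). RBR1 exceeded the filter on 1 array and was not tested. CKS1, a small subunit that binds CDKs, did not pass in any comparison and read 1882 to 2337.8 over the 6 arrays.

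Of 28 genes of replication origins and forks, 27 were tested, and 1 passed, in Ossl against Osoc. This was RPA14, a subunit of the protein that coats single-stranded DNA, which read 2027.2 and 2133.5 in Ossl, 1576.4 and 1672.5 in Osoc, and 1831.7 and 1972.3 in OsPE. It was 1.28-fold higher in Ossl than in Osoc (0.35 ± 0.08, adjusted p = 0.0117), and did not pass with median centring (0.0678) or without Osoc replicate 1 (0.0968) or Ossl replicate 2 (0.0692). In Osoc against OsPE and in Ossl against OsPE 0 of the 27 passed in limma, with 4 and 1 at an unadjusted p below 0.05. The sliding clamp PCNA, a marker of DNA synthesis, read 1014.6 and 1134.2 in Ossl, 1059.1 and 1019.9 in Osoc, and 1037.1 and 976.6 in OsPE. The ranges of PCNA overlapped, and its interval for Ossl against OsPE ran from -0.12 to 0.3.

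Core histone genes of the replication-dependent kind are transcribed in S phase. The 6 measured genes of the histone list were H2B.5, H2B.6, H2B.7, H2B.10, H2B.11 and CenH3. None was an H2A or H4 gene, and CenH3 is the centromeric H3. Of these 6, 2 fell in Osoc against OsPE, beside 3.85% lower over all tested probe sets. In Ossl against Osoc 3 rose, beside 5.93% higher, and every call was of an H2B gene. In Ossl against OsPE 0 passed in limma, also at an unadjusted p below 0.05. H2B.7 read 4161.1 and 2864.3 in Ossl, 1942.6 and 1935 in Osoc, and 3666.4 and 3052.4 in OsPE, with both Osoc arrays lowest. It was 1.72-fold lower in Osoc than in OsPE (-0.78 ± 0.14, adjusted p = 0.00441) and 1.77-fold higher in Ossl than in Osoc (0.83 ± 0.14, adjusted p = 0.002). Without OsPE replicate 1 the comparison with OsPE did not pass (0.061). H2B.6 read 8814.7 and 8362.1 in Ossl, 7361.4 and 6407.6 in Osoc, and 9035.2 and 8189.2 in OsPE, and was 1.25-fold lower in Osoc than in OsPE (adjusted p = 0.0203) and 1.25-fold higher in Ossl than in Osoc (adjusted p = 0.0148). The first call of H2B.6 ended without OsPE replicate 1 (0.224) or Osoc replicate 2 (0.201), and the second without Osoc replicate 2 (0.164) or Ossl replicate 1 (0.0815). With no filter on dim probe sets neither call of H2B.6 remained (0.0717 for Osoc against OsPE and 0.054 for Ossl against Osoc). H2B.10 read 1597 and 1475.6 in Ossl against 1227.1 and 1147.6 in Osoc, 1.29-fold higher (adjusted p = 0.0147), and did not pass with median centring (0.0556) or without Osoc replicate 2 (0.115) or Ossl replicate 1 (0.0871). The H2B genes are near-identical copies, and the probe set of H2B.7 is of the type that can bind related transcripts. The signals of single H2B genes are therefore uncertain, and the H2B calls may not be separate results.

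**Figure D5:**
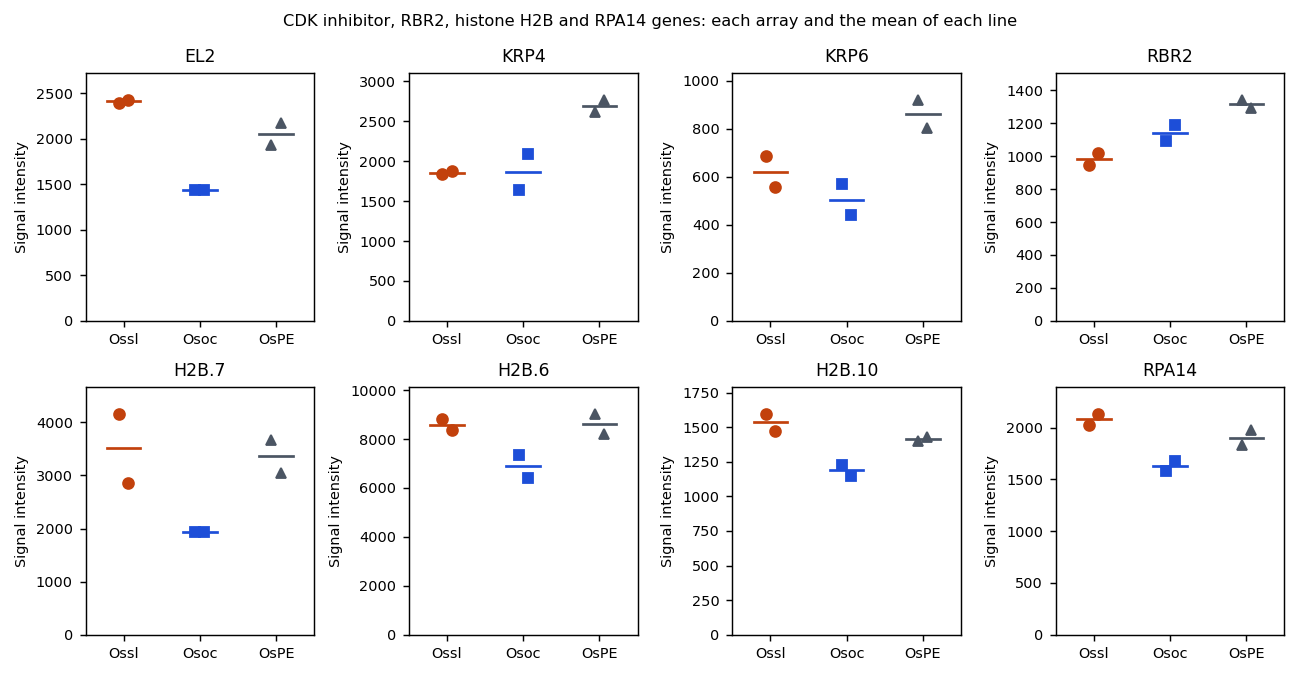
Signal on each array (points) and mean of each line (bars) for the CDK inhibitor genes EL2, KRP4 and KRP6, for RBR2, for 3 histone H2B genes and for RPA14, on axes that start at 0. EL2, the 3 H2B genes and RPA14 are lowest in Osoc, and KRP4, KRP6 and RBR2 are highest in OsPE.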

How the data were processed

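RNA of 6 seedling samples, 2 each of Ossl, Osoc and OsPE, was hybridised to Affymetrix Rice Genome arrays. The deposited values are signal intensities on a linear scale, 1 per probe set and array. GCOS 1.2 was used, per the submitters' processing notes, which name no algorithm. The arrays share a trimmed mean of 500.1, and this scaling was kept. Arrays give no counts, and their number limits the precision. SDs and SEs rest on 2 arrays per line.

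After 123 control probe sets were left out, 57258 remained, of which 39629 passed the filter. Differences are of log2(signal + 16), which understates changes at low signals. All 6 arrays entered 1 limma 3.58.1 fit (R 4.3.3; lmFit, contrasts.fit, eBayes with a variance trend), with two-sided tests and Benjamini-Hochberg adjustment over all tested probe sets. Calls have adjusted p below 0.05. The fit had 3 residual and 8.98 prior degrees of freedom. The procedure was tested on simulated data.

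Names came from the platform annotation and RefSeq (ASM3414082v1), matched by gene ID; 22436 probe sets had 1 gene, 95 several and 34850 none listed. No sequences are shown. Gene lists were matched by symbol. Those for nucleotide supply and for mitosis and its ubiquitin ligase matched no measured gene. Homeobox OSH genes, OsMADS6 and the arsenate reductases listed as CDC25.1 and CDC25.2 were removed by name. Named are all members called in a comparison, the brightest and dimmest uncalled member of each class, and called partner genes (at most 4 per list). CDKA-2, CDKD-1, CDKE-1, CDKF-1, CDKF-4, CYCB2-1, CYCB2-2, CYCD5-3, CYCH1-1, CYCL1-1, CYCP2-1, CYCP4-1, CycT1;2, RBR1, CKS1 and PCNA were named after their values were seen. The members and lists were chosen with earlier results of these data known. The alternatives tried are listed in the closing section. Same-numbered arrays of different lines deviated from their line means with correlations of 0 to 0.014, so the numbers do not pair them. Python 3.11.15, pandas 2.3.3 and matplotlib 3.10.9 made tables and figures.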

Additional observations from a re-analysis of the deposited data

How the results depend on the processing

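The alternatives were log2 offsets of 1 and 64, quantile normalization, median centring, no filter, a stricter filter (60th percentile on all 6 arrays), no variance trend, robust variance, the replicate number as a block, only the lines compared, a threshold of 0.01, the averaged probe sets of a gene, and each array left out. A line left with 1 array is assumed to vary like the others. No called difference of a member or partner gene changed sign under any of these. The number of members called in Osoc against OsPE was 0 in all of them. In Ossl against OsPE it was 3, with 0 without the variance trend, 1 at the threshold of 0.01, and 1 to 3 with 1 array left out. In Ossl against Osoc it was 4, with 2 under median centring, 0 without the trend, 2 at the threshold of 0.01, and 1 to 4 with 1 array left out. Partner genes called in Osoc against OsPE were 5, with 0 without the trend, 3 with averaged probe sets, and 2 to 6 with 1 array left out. In Ossl against OsPE they were 2, with 0 without the trend, 1 at 0.01, 1 with averaged probe sets, and 0 to 2 with 1 array left out. In Ossl against Osoc they were 5, with 3 under median centring, 0 without the trend, 2 at 0.01, and 3 to 5 with 1 array left out. The replicate block left the members called at 0, 3 and 4 and added KRP6 to the partner genes in Ossl against OsPE, which made 3. Fits with 1 array left out rest on fewer arrays; for the other settings the cause was not tested. Array medians spanned 0.14 (log2), and centring moved the comparisons by 0.01, -0.02 and -0.02. All probe sets called without the trend numbered 28 in Osoc against OsPE, 382 in Ossl against OsPE and 402 in Ossl against Osoc; at 0.01 they were 1398, 1598 and 2323. With 1 array left out they were 1209 to 3309, 1504 to 2798 and 2367 to 3790, in the same order. At low signals, also above the arrays' 40th percentile, the spread between arrays of 1 line limits what can be seen. CYCB1-1 exceeded that percentile on all 6 arrays, and its interval for Ossl against OsPE ran from -0.32 to 1.34.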
